A study of Mus musculus with 8 samples.

Results

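The nuclear genes of oxidative phosphorylation were taken as the protein-coding genes on mouse chromosomes 1 to 19 and X whose symbols begin with Nduf, Uqcr, Cox4 to Cox8 or Atp5. The symbol rule found 92 genes among 21631 protein-coding genes of these chromosomes. They comprised 39 complex I subunits, 8 complex I assembly factors (Ndufaf), 8 complex III subunits, 18 complex IV subunits, 17 complex V subunits and 2 further genes, Cox7a2l and Ndufa4l2. Ndufa4, whose protein sits in complex IV despite its name, was counted there.

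The study mapped the chromatin positions of ZGLP1, which has zinc fingers of the GATA type, by immunoprecipitating a V5 tag on an overexpressed Zglp1 (V5Zglp1OE) and sequencing the DNA. Libraries came from primordial germ cell-like cells (PGCLCs), germ cells derived in culture, and from the embryonic stem cells (ESCs) they are made from, on a C57BL/6 x DBA2 background from the H18 BVSC and BDF1-2-1 BVSC ESC lines (the labels do not say which line gave which library), with PGCLCs expanded on m220 feeder cells. PGCLCs were taken at c7 or c8 of expansion culture (culture day 7 or 8) after receiving doxycycline (Dox), without or with retinoic acid (RA), from c3 (day 3) on, and were sorted as SC+ and mCherry+. ESCs had both agents for 24 h and were sorted for mCherry. The 5 ChIP libraries were c7 Dox, c8 Dox, c7 Dox and RA, c8 Dox and RA, and ESC Dox and RA, and the 3 inputs were c8 Dox, c8 Dox and RA, and ESC Dox and RA. Every library carried the V5Zglp1OE label and had Dox, and each group had 1 library. No ChIP library came from cells without the tagged Zglp1 or without Dox. How far the summits depend on ZGLP1 was therefore not tested. The data used here are 32912 peak summits on chromosomes 1 to 19 and X from a single list that names no library and gives no height. Conditions were therefore not compared, read depth is unknown, and cell type markers could not be checked. Where no summit is listed, binding under the threshold that the authors set cannot be told apart from none.

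Oxidative phosphorylation couples electron transfer along the inner mitochondrial membrane to ATP synthesis. Complex I takes electrons from NADH, complex III passes them to cytochrome c, complex IV hands them to oxygen, and complex V uses the resulting proton gradient to make ATP. Most subunits are encoded in the nucleus and are needed in nearly every cell, and their promoters are often CpG-rich with sites for NRF1, GABP (an ETS factor), YY1 and SP1. Some complex IV subunits also have second genes that are expressed mainly in heart and skeletal muscle, lung or testis.

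The promoters below show genes with and without a summit near the start, and were chosen with the summit distances known. Cox8a is the widely expressed form and Cox8b the heart and skeletal muscle form of complex IV subunit VIII. Cox7a1 and Cox7b2 are muscle and testis forms with and without a summit, Ndufb4 and Ndufb4b are a complex I subunit gene and a short copy of it, and Ndufa9 and Cox6a1 had the summits closest to their starts. Each runs 5′ to 3′ on the gene's strand from 200 bases before the RefSeq start through the first 30 bases from it (GRCm38.p6), and capitals mark matches, on either strand, to the motif words named later. In every distance here the first base of the gene is 0. The summit list does not state the base its positions count from, so an offset can be off by a base.
Cox8a, chr19:7217587-7217816, minus strand: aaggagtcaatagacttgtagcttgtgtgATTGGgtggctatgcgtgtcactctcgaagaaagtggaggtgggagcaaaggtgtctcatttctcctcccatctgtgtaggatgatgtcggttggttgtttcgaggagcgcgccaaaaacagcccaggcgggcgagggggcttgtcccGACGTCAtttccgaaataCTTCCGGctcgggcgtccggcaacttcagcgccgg
Cox8b, chr7:140900417-140900646, minus strand: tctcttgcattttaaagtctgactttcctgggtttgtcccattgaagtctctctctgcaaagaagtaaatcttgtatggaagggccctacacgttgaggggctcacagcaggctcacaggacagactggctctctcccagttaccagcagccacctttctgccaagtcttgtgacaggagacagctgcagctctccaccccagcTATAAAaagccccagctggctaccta
Cox7a1, chr7:30183971-30184200, plus strand: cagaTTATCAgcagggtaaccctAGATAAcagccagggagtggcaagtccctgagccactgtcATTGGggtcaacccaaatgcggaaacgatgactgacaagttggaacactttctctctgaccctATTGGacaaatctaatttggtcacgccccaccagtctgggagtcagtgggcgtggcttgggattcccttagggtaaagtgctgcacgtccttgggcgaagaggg
Cox7b2, chr5:71548176-71548405, minus strand: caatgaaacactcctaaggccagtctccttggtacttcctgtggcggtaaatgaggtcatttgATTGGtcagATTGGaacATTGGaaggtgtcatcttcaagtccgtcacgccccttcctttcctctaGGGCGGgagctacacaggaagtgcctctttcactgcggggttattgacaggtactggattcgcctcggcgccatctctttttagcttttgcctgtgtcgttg
Ndufb4, chr16:37654339-37654568, minus strand: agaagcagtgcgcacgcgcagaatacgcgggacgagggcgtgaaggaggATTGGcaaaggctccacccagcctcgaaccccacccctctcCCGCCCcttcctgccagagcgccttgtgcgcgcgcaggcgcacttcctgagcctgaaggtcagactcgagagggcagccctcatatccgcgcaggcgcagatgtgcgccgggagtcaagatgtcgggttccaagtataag
Ndufb4b, chr19:25032908-25033137, plus strand: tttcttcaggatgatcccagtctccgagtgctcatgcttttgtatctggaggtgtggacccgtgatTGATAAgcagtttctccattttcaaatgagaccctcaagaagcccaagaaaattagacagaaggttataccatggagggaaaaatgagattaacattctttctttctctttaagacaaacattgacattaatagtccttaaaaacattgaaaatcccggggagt
Ndufa9, chr6:126849115-126849344, minus strand: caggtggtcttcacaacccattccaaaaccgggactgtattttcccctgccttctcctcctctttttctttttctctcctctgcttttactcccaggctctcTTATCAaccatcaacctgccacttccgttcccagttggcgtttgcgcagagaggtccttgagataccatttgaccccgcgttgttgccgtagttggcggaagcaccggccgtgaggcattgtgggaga
Cox6a1, chr5:115348929-115349158, minus strand: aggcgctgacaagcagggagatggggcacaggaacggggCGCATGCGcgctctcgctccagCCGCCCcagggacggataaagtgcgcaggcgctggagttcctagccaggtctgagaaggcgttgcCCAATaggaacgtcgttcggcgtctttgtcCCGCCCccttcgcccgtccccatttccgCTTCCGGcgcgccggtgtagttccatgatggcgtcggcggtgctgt

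The summit lay 10 bases before the start of Cox8a, while the closest summit to Cox8b lay 3059 bases before its start. The word for ETS factors in Cox8a began 5 bases before the start and that for CREB-type factors 23 bases before it, on either side of the summit. Cox8b had neither, and held TATAAA 4 bases into the gene. In Cox7a1 the summit lay 132 bases before the start, beside an ATTGG whose first base was at 137 bases before the start, and the pair of GATA words lay farther upstream, from 177 and 196 bases. The summit of Ndufa9 and that of Cox6a1 lay 1 base into the gene and that of Ndufb4 2 bases before it. The closest summits to Ndufb4b and Cox7b2 were 33309 and 409264 bases away.

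Summits lay at nearly all of these genes. Of 92 genes, 81 (88.0%, exact 95% binomial interval 79.6 to 93.9, which covers counting error only) had a summit within 1 kb of either end of the annotated gene. The ends are called boundaries here, and such a summit a boundary summit. Over all protein-coding genes the share was 53.6%. Within 10 kb of a boundary, 86 of 92 genes (93.5%, interval 86.3 to 97.6) had a summit, against 67.3% of all protein-coding genes. The median was 2 summits within 10 kb per gene, against 1 over all genes. At the 1 kb limit, Atp5d stood just inside with its closest summit at 753 bases and Atp5g3 just outside at 1140 bases, and at 10 kb the neighbours of the limit were Cox7a2 at 4514 and Cox4i2 at 14441 bases.

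These genes were shorter and closer to neighbours than most. Their median length was 7106 bases against 17329 over all genes, and the median gap to the next protein-coding gene 307 against 5104 bases. Another gene lay within 1 kb of 55 of the 92 (59.8%), against 32% of all genes. The part of length and neighbours in the shares above was not tested.

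The summits were at gene starts. RefSeq start sites were matched for 75 of the 92 genes, and 71 of these (94.7%, interval 86.9 to 98.5) had a summit within 1 kb of a listed start, against 56.4% of all protein-coding genes with a listed start. Their offsets ran from 335 bases upstream to 396 bases into the gene, with a median of 5 bases into the gene. In 45 of the 71 genes (63.4%) the summit was within 100 bases of the start, against 46.4% of all genes with a summit there. It lay upstream in 32 genes and in the gene, or on its first base, in 39. At the other end of the gene, 7 of 75 members had a summit in the same window (9.33%, against 6.27% of all genes). All 7, Atp5b, Cox6b2, Ndufa13, Ndufaf8, Ndufb10, Ndufb6 and Ndufv3, also had one at the start. The end summits of Atp5b, Ndufa13 and Ndufb6 were nearest to Baz2a, Yjefn3 and Topors, and the others to the gene itself. That of Cox6b2, 566 bases into the gene, also lay within 1 kb of its start.

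**Figure D1:**
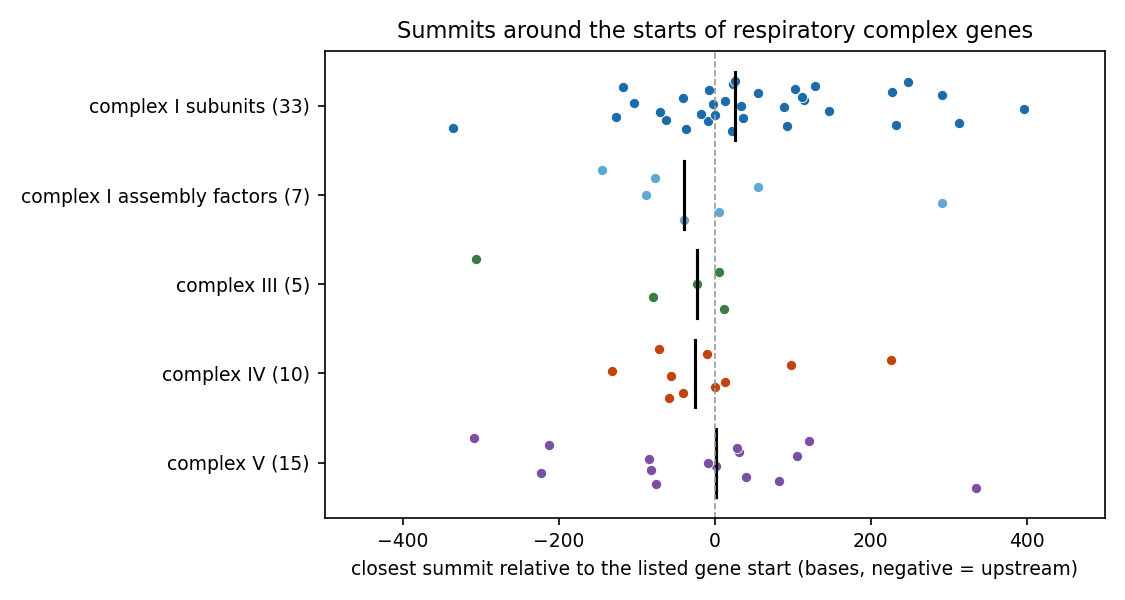
Position of the closest summit (x axis, bases from the listed start, negative upstream) for the 70 genes of the 5 groups with a summit within 1 kb of a listed start; each point is a gene, numbers in brackets count genes, and black bars are medians. Points of every group fall on both sides of the start, between 335 bases upstream and 396 bases into the gene.

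For 3 genes the boundary misses the start. The annotated spans of Atp5g3, Cox5a and Cox7a2 reach beyond the listed start of each gene, and none had a boundary summit. Counted from the listed start, the summits lay 2 bases into Atp5g3, 59 bases before Cox5a and 98 bases into Cox7a2. Atp5g3 encodes the c subunit of the rotating ring of ATP synthase, and Cox5a and Cox7a2 encode complex IV subunits. With listed starts and boundaries together, 84 of 92 genes (91.3%, interval 83.6 to 96.2) had a summit within 1 kb, against 57.5% of all protein-coding genes. The 8 without were Cox4i2, Cox6a2, Cox7b, Cox7b2, Cox8b, Cox8c, Ndufb4b and Ndufb4c.

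**Figure D2:**
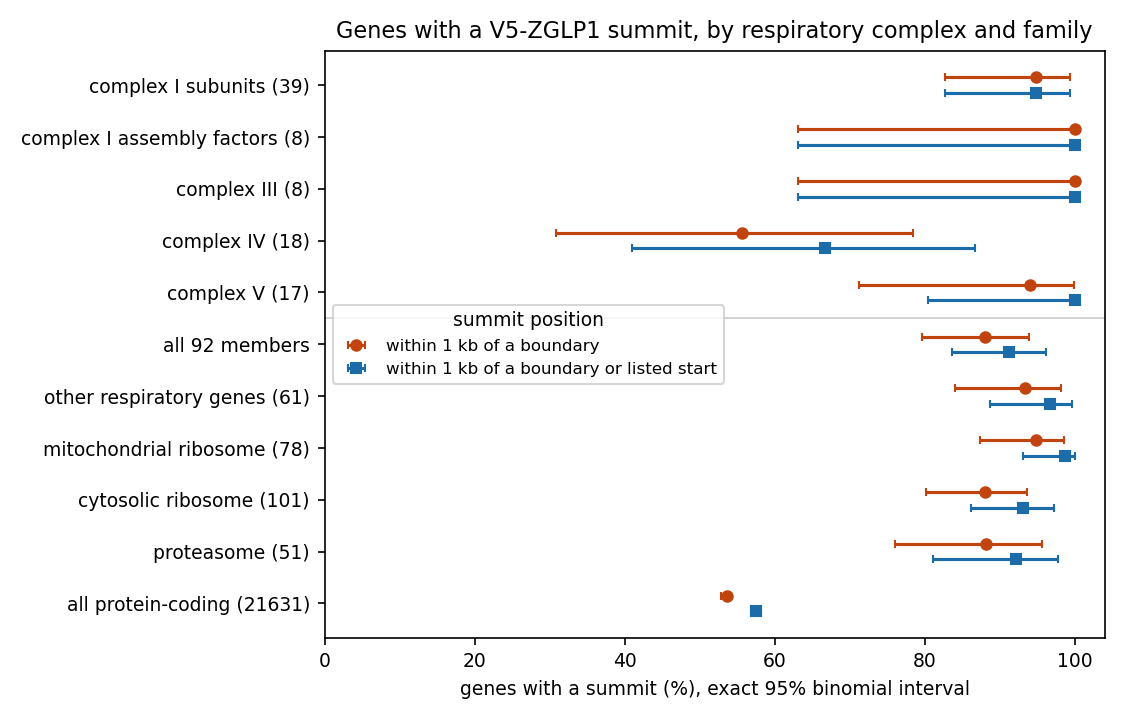
Share of genes with a summit (x axis, percent) within 1 kb of a boundary (circles) and of a boundary or listed start (squares); bars are exact 95% binomial intervals and numbers in brackets count genes. Complex IV stands at 55.6% and 66.7%, all 92 members together at 88.0% and 91.3%, and the other 4 groups of members at 94.1% or above.

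Complex I is the largest of the complexes, and 37 of its 39 subunit genes (94.9%) had a boundary summit. Core subunits include those that carry the flavin and iron-sulfur clusters or bind quinone. Among them, the distances to a boundary were 24 bases for Ndufv1, 56 for Ndufs3, 128 for Ndufs8, 226 for Ndufs7, 233 for Ndufs1 and 248 for Ndufv2. None of these came as close as the nearest of the accessory genes, which were Ndufa9 (chromosome 6, 126821863 to 126849144) at 1 base, Ndufb4 (chromosome 16, 37647602 to 37654368) at 2 bases and Ndufs5 (chromosome 4, 123712710 to 123718186) at 7 bases. Ndufab1, the mitochondrial acyl carrier protein that is also a complex I subunit, had its summit at 17 bases, and Ndufs4, an accessory subunit whose loss is a known cause of Leigh syndrome, at 227 bases.

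The pair of complex I genes without a summit were copies of Ndufb4. Ndufb4b (chromosome 19, 25033108 to 25033578) spans 471 bases and Ndufb4c (chromosome 15, 73809449 to 73809933) 485 bases, against 6767 bases for Ndufb4. Their closest summits were 33309 and 37255 bases away. Reads shared between such copies can be lost in mapping, and their handling is not stated in the labels. Whether this plays a part at Ndufb4b and Ndufb4c was not tested.

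All 8 complex I assembly factors, which help to build the complex without staying in it, had a summit within 1 kb. The closest to a boundary were those of Ndufaf2 at 32 bases, Ndufaf1 at 34 and Ndufaf7 at 47, and the farthest that of Ndufaf3 at 291. Counted from the start, the Ndufaf2 summit lay 5 bases into the gene.

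All 8 complex III genes had a summit too. Uqcrfs1, the Rieske iron-sulfur protein, had it at 5 bases, Uqcr10 at 12 and Uqcrc1, a core protein, at 23. Those of Uqcr11, Uqcrq, Uqcrb, Uqcrc2 and Uqcrh lay at 79, 188, 199, 228 and 306 bases. With 8 genes in a group, a count of 8 has an exact interval from 63.1% to 100.0%, so these groups cannot be ranked against complex I.

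Complex V, the ATP synthase, had a boundary summit at 16 of 17 genes and a summit at all 17 when the listed starts were added. Counted from boundaries, the closest were Atp5h (subunit d of the stator) at 9 bases, Atp5l (subunit g) at 29 and Atp5k (subunit e) at 31. The catalytic head genes Atp5a1 (alpha) and Atp5b (beta) had theirs at 281 and 335 bases, and the central stalk genes Atp5c1 (gamma), Atp5d (delta) and Atp5e (epsilon) at 75, 753 and 40. The summits at Atp5a1 and Atp5c1 lay closer to boundaries of Haus1 and Kin. The summit 83 bases into Atp5d, counted from a listed start inside the annotated span, is closer than that at its boundary. The 3 genes for the c subunit, which encode the same mature protein, had summits 222 bases before the start of Atp5g1, 81 before that of Atp5g2 and 2 into Atp5g3.

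Complex IV, cytochrome c oxidase, differed in its counts. Boundary summits were found at 10 of 18 genes (55.6%, interval 30.8 to 78.5), near the 53.6% of all protein-coding genes, and at 12 of 18 (66.7%, interval 41.0 to 86.7) with listed starts. Among the isoforms known for restricted expression, 2 of 7 complex IV genes had a summit by either measure (28.6%, interval 3.67 to 71.0). Of the other complex IV genes, 8 of 11 had a boundary summit (72.7%, interval 39 to 94). With listed starts, a measure added after seeing the data, 10 of these 11 had one (90.9%, interval 58.7 to 99.8). Listed starts were matched for 4 of the 7 restricted genes and 9 of the 11 others. The genes closest to a summit were Cox6a1 (chromosome 5, 115345652 to 115348958) at 1 base, Cox8a (chromosome 19, 7215158 to 7217616) at 10 and Cox6b1 (chromosome 7, 30616971 to 30626114) at 13. Cox5b, Cox6b2, Ndufa4, Cox7a1, Cox6c, Cox7c and Cox4i1 followed at 41, 56, 71, 132, 208, 226 and 370 bases, with the restricted forms Cox6b2 and Cox7a1 among the common ones. Members are few and no test of the difference between isoform classes was made.

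In 4 of the 8 isoform pairs the widely expressed form had a summit within 1 kb and the restricted form did not. Cox4i1, whose subunit is the common form of COX4, had its closest summit at 370 bases and 7 within 10 kb, while Cox4i2 (chromosome 2, 152753916 to 152765039), the lung form, had none within 10 kb and the closest at 14441 bases. Cox6a1 had a summit at 1 base, and Cox6a2 (chromosome 7, 128205435 to 128206366), the heart and skeletal muscle form, had its closest at 25561. Cox8a, with its summit at 10 bases, forms pairs with Cox8b (chromosome 7, 140898942 to 140900446), at 3059 bases and with 2 summits within 10 kb, and with the testis form Cox8c (chromosome 12, 102899306 to 102900534), at 20648 bases and with none.

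In 3 pairs both forms had a summit. Cox6b1 had it 13 bases into the gene, and the testis form Cox6b2 (chromosome 7, 4751792 to 4753094) had 1 at 56 bases upstream and another 566 bases into the gene. Cox7a2 had it 98 bases into the gene from a listed start, and Cox7a1 (chromosome 7, 30184171 to 30186030), the heart and skeletal muscle form, had it 132 bases upstream. Ndufa4 had it 71 bases upstream, and Ndufa4l2 (chromosome 10, 127509274 to 127517154), a paralogue induced by hypoxia, had 5 within 10 kb, the closest at 163 bases from its lower end. By tissue, 1 of the 3 testis forms (Cox6b2) and 1 of the 3 muscle forms (Cox7a1) had a summit within 1 kb. Expression was not measured in this series.

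In the last pair neither had a summit within 1 kb. Cox7b (chromosome X, 106015700 to 106022450) had its closest 4013 bases upstream, and the testis form Cox7b2 (chromosome 5, 71442823 to 71548205) lay 409264 bases from the next summit.

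**Figure D3:**
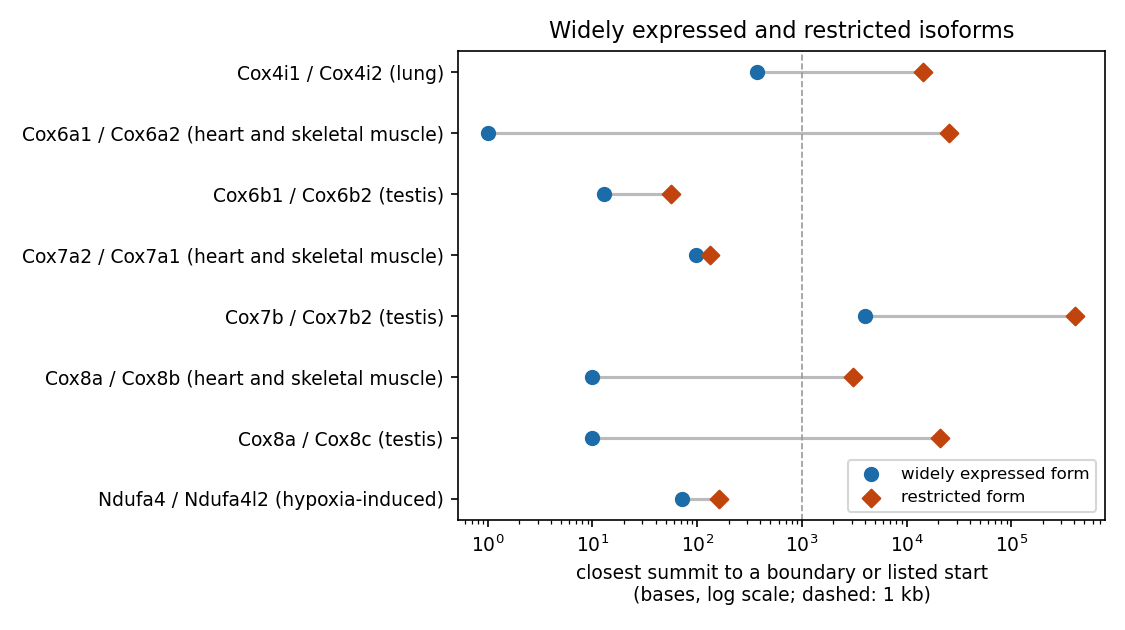
Distance of the closest summit to a boundary or listed start (x axis, bases, log scale) for the widely expressed form (circles) and the restricted form (diamonds) of 8 pairs; the dashed line marks 1 kb. The diamonds of Cox4i2, Cox6a2, Cox7b2, Cox8b and Cox8c lie right of the line and those of Cox6b2, Cox7a1 and Ndufa4l2 left of it, while Cox7b is the only circle to the right.

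Of the 2 further genes, Cox7a2l, a factor that joins complexes III and IV into supercomplexes, had its summit 81 bases into the gene, and Ndufa4l2 is described above.

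Summits are sparse on the X chromosome in this list, where boundary summits were found at 22.7% of protein-coding genes, against 55.0% on autosomes. Of the 3 X-linked members, Ndufa1 (37187588 to 37191238) had a summit 22 bases into the gene and Ndufb11 (20615326 to 20617619) 396 bases into it. Both summits lay closer to a neighbour, Rnf113a1 and Rbm10, while a second summit of Ndufb11, 566 bases upstream of its start, had Ndufb11 as its nearest gene. Cox7b, a complex IV subunit, had 2 summits within 10 kb, and these lay 115 bases from Magt1 and at the very boundary of Atp7a. Without X, the share of members with a boundary summit was 88.8%.

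Many summits cannot be given to 1 gene. In 37 of the 84 genes with a summit at a boundary or listed start, the closest summit also lay within 1 kb of another protein-coding gene's boundary, and in 17 it was closer to that gene. These 17 include Ndufaf7, Ndufs1, Uqcrh, Uqcrq, Cox4i1, Atp5a1 and Atp5c1, whose distances are given above. Starts of opposite strands stood head to head within 1 kb at 20 of 75 members (26.7%), against 8.59% of all protein-coding genes with a listed start. All 20 of these had a summit within 1 kb of the start, and so did 96.2% of all head-to-head genes. Among the other 55 members 51 (92.7%) had one, against 52.7% of all other genes.

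Some of the 20 head-to-head pairs, chosen here after their values were seen, show how close the starts lie. Atp5j, the F6 coupling factor of ATP synthase, starts 148 bases from Gabpa, which encodes the DNA-binding subunit of GABP, and the closest summit lay 84 bases upstream of Atp5j. Ndufb5 starts 308 bases from Mrpl47, a mitochondrial ribosomal gene, with the summit 103 bases upstream, and Ndufa7 starts 10 bases from Rps28, a cytosolic ribosomal gene, with the summit 36 bases into Ndufa7. Ndufs3 and Kbtbd4 start 19 bases apart, Ndufb3 and Fam126b 64, and Ndufa11 and Vmac 63. Uqcrq, a complex III subunit, overlaps the oocyte growth factor gene Gdf9 in the annotation, and the summit at Uqcrq was closer to a boundary of Gdf9.

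At the genes with most summits within 10 kb, many of these lay closer to a neighbour's boundary. Atp5b had 10, of which 8 had their nearest boundary at Baz2a and 1 at Ptges3, leaving the summit 335 bases into the gene. Atp5d had 9, of which 4 were nearest to Midn, 3 to Cbarp and 1 to Stk11. The 3 nearest to a boundary of Cbarp all lay inside Atp5d, and 1 of them is the summit 83 bases from its listed start. Cox4i1 had 7, including 3 nearest to Emc8, and Ndufv3 had 7, including 3 nearest to Wdr4. Atp5h, Ndufa7 and Ndufb10 followed with 6 each, of which 1, 1 and 3 were nearest to the gene itself. Over all members, 225 summits lay within 10 kb, and 112 of them (49.8%) had the member's own boundary as the nearest. Of the 86 genes with a summit in this window, 24 had a single summit, 54 had 2 to 4 and 8 had 5 or more.

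Promoter sequence was compared over RefSeq windows of 300 bases, 250 before and 50 from the start on. The members had 80 windows, of which 47 (58.8%) held a summit, against 25.5% of the 21045 windows of all protein-coding genes. The 80 windows came from 75 genes and the 21045 from 17274, since a gene with several listed starts, as 5 members have, counts more than once. CpG-rich windows, with a GC content of at least 50% and a ratio of observed to expected CpG of at least 0.6, made up 77.5% of the members' windows and 45.6% of all. A summit lay within 1 kb of the start for 62 of 62 CpG-rich member windows, and for 90.2% of CpG-rich windows of all genes. Among the other windows it did so for 14 of 18 members' (77.8%) and 24.5% of all. Some of the 18 lay near the limits of the class, such as Atp5l (GC 49%, ratio 0.667) and Ndufb11 (ratio 0.596). Whether the other windows of all genes lay as near was not compared. CpG content moved with the summits, and its part in the members' share was not tested beyond these classes.

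The 4 member windows without a summit within 1 kb of the start, those of Cox7b, Cox7b2, Cox8b and Ndufb4b, were all outside the CpG-rich class, with 5, 10, 2 and 5 CpG. The other 14 windows outside this class did have a summit there, and those with fewest CpG were Cox7a1 with 7, Ndufc2 with 8 and Cox6b2 with 10, whose summits lay 132, 291 and 56 bases from the start.

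**Figure D4:**
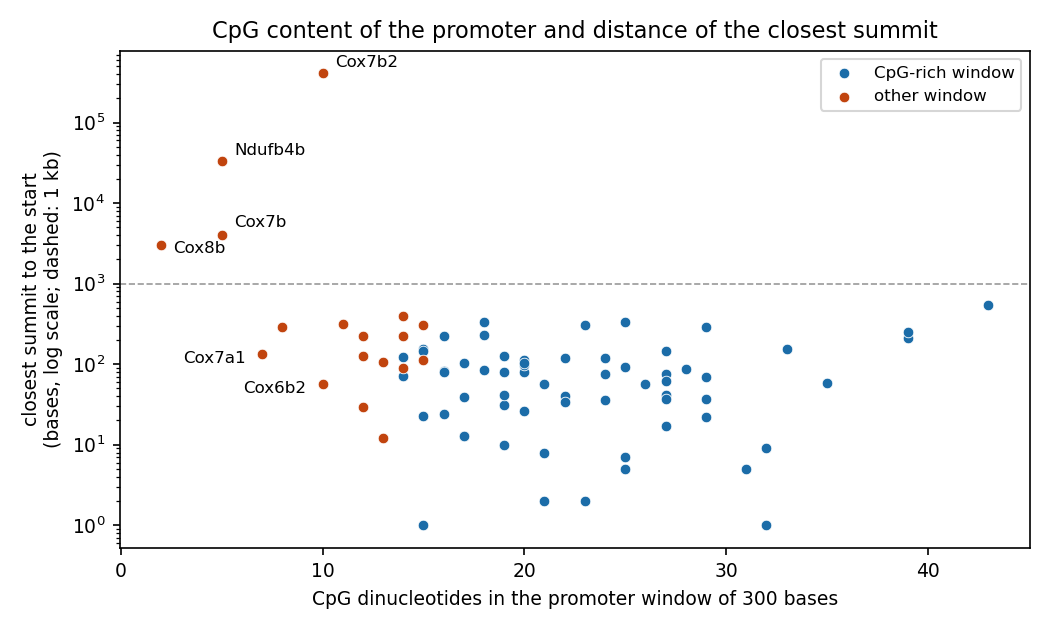
Number of CpG dinucleotides in each of 80 promoter windows of members (x axis) against the distance of the closest summit to the start (y axis, bases, log scale; dashed line 1 kb); colour tells CpG-rich windows from others. The windows above the line are Cox7b2, Ndufb4b, Cox7b and Cox8b, with at most 10 CpG, while Cox7a1, Ndufc2 (not named in the plot) and Cox6b2 lie below it with 7, 8 and 10.

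Motif words were searched on both strands of the same windows. ZGLP1 has GATA-like fingers, and AGATAA or TGATAA occurred in 14 of 80 member windows (17.5%) and 15.8% of all windows. Among windows that held a summit the shares were 9 of 47 (19.1%) for members and 6.35% for all. With 9 windows the share is imprecise. By word, TGATAA was in 7 of the 47 (14.9%) against 2.48% for all, and AGATAA in 3 (6.38%) against 4.02%. Of the words of factors known for respiratory genes, 4 had a higher share in members than over all windows: GCATGCG (NRF1) at 15.0% against 4.48%, ATGGCGG (YY1) at 16.2% against 5.29%, CCGGAAG (ETS factors) at 21.2% against 11.7% and TGACGTC (CREB-type factors) at 10.0% against 3.88%. GGGCGG (SP and KLF factors) stood at 42.5% against 46.7%, ATTGG (NFY) at 41.2% against 38.5% and TATAAA at 11.2% against 12.7%. Among windows that held a summit, the shares of members and of all were 21.3% and 8.01% for GCATGCG, 21.3% and 9.69% for ATGGCGG and 10.6% and 6.63% for TGACGTC. For CCGGAAG they were closer, at 27.7% and 23.5%, and GGGCGG was less frequent in members, at 44.7% against 71.0%. The shares of ATTGG were 44.7% and 40.4%, and those of TATAAA 10.6% and 5.05%. GCATGCG can match both strands of the same site, as in Cox6a1. Overlapping windows of a gene can share a word, as ATGGCGG in Ndufa7 and TGACGTC in Ndufa5, and each window is counted. Matches are described only, and a window without a word may hold a variant of it.

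Over all windows, the words of NRF1, YY1 and ETS factors were also more frequent where a summit lay in the window, at 8.01%, 9.69% and 23.5%, than where none lay within 1 kb, at 1.36%, 1.29% and 2.84%. So were GGGCGG, at 71.0% against 19.6%, and TGACGTC, at 6.63% against 1.47%, while ATTGG stood at 40.4% and 38.5%. The share ran the other way for AGATAA, at 4.02% against 15.1%, for TGATAA, at 2.48% against 12.7%, and for TATAAA, at 5.05% against 20.8%. The CpG-rich share of the windows moved with the summits as well, as given above, and its part in these word shares was not tested.

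The share was lower for both members and all genes once summits at gene boundaries were left out. Counting only summits over 1 kb from every protein-coding boundary, 41 of 92 members (44.6%, interval 34.2 to 55.3) had a summit within 10 kb, against 36% of all genes. Some of these lay at listed starts inside the annotated span, as at Cox7a2 and Atp5g3. With summits within 1 kb of a listed start left out too, 35 of 92 members (38.0%, interval 28.1 to 48.8) had one, against 31.6% of all genes.

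The other respiratory genes, 61 found of a list of 62, had a boundary summit in 57 cases (93.4%, interval 84.1 to 98.2). All 8 genes of complex II, which feeds electrons from succinate, and its assembly had one, from Sdhaf4 at 23 bases and Sdha at 43 to Sdhaf3 at 198. So had all 19 complex IV assembly factors and all 6 of complex III. Cycs, the somatic cytochrome c, had a summit at 94 bases, and Cyct, the testis form, had its closest at 9664. Among 13 regulators of respiratory and mitochondrial genes, 12 had one, among them Nrf1 at 14 bases, Yy1 at 90, Gabpa at 169 and Tfam, the packaging and transcription factor of mitochondrial DNA, at 201. Gabpb1 had none near a boundary but 1 at 58 bases before a listed start. Dmac1, a complex I assembly gene, had the farthest, at 167629 bases.

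Other families used in most cells, taken by symbol, stood close by. Boundary summits were found at 94.9% of 78 mitochondrial ribosomal genes and 88.2% of 51 proteasome genes. They were also found at 88.1% of 101 genes with cytosolic ribosomal symbols (Rpl or Rps followed by a digit, Rplp or Rpsa). This last symbol rule also takes genes that are not ribosomal proteins, such as the Rps6k kinase genes. Differences between these families and the 92 respiratory genes, at 88.0%, were not tested. Pseudogenes that carry the same symbols stood apart from the genes: 0 of 19 had a boundary summit (exact interval up to 17.6%), as against 2.32% of all 10508 annotated pseudogenes, and the closest was Atp5l2-ps at 1315 bases.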

How the data were processed

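V5 ChIP-seq was made from 5 ChIP and 3 input libraries, 1 per group. The authors deposited 1 list of summit positions in bases, on mm10, with no score, height or library, so no depth or replicate error can be given. Per the submitters' processing notes, the tools included the peak caller MACS2 2.1.1.20160309, the aligner Bowtie 1.1.2, HOMER 4.9.1, the read trimmers cutadapt 1.9.1 and Trim Galore 0.4.1, and, for alignments, SAMtools 1.3 and Picard 2.1.0. Settings and the libraries behind each peak are not given in the sources used here.

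Gene spans came from RefSeq GRCm38.p6, the same build, and starts, strands and promoter sequences from a RefSeq promoter table, matched by gene ID. It holds 1 or more starts per gene, and a gene counted when any of them had a summit. Distances are absolute bases to a summit. Shares carry exact 95% binomial intervals, and no test was made, since the list has no replicates. Named were members without a summit within 1 kb, X-linked members, isoform pairs, the 3 closest per complex and those with most summits, where a tie of 3 genes for the fifth place made 7 in all. Core subunits, gene partners, and the Cox7a1, Cox7b2 and Ndufb4b promoters were added after values were seen. Members and lists were chosen with earlier results of these data known. Distances and counts were checked against a direct calculation for 300 of 300 genes, and the overlap of 1716 pairs of windows on opposite strands was the same sequence in all of them. Intervals were computed with SciPy 1.17.1 and figures drawn with matplotlib 3.10.9, in Python 3.11.15 with pandas 2.3.3 and numpy 2.4.6. Of the members, 1 gene is counted but not reported by name here.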

Additional observations from a re-analysis of the deposited data

Results flagged for a closer look

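The mitochondrial genome, outside the comparisons above, held 5 summits. They are of interest here because this genome encodes the remaining subunits of the same complexes. Of its 13 protein-coding genes 4 had a summit inside, and all 4 encode complex I subunits: ND1 at 3440, ND2 at 4097, ND4 at 11133 and ND5 at 12300. The number and length of complex I genes among the 13 were not set beside this count. It is therefore not read as particular to complex I. The fifth summit, at 16125, lay outside every annotated gene. Reads shared with mitochondrial sequence in the nuclear genome were not examined, and the list gives neither height nor library, so the 5 positions are given as values only.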

How the results depend on the processing

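Of 71 alternative values, 57 stayed within the exact interval of the reported share, 14 moved and none changed sign. The differences over all genes rest on the same counts as the shares, so the 71 are not separate checks. The alternatives that use listed starts beside boundaries were chosen after seeing the data. Giving each summit to the gene with the nearest boundary lowered the share of members within 1 kb to 75% (25.4 percentage points over all genes, where the reported difference was 34.5) and that of complex I subunits to 76.9%. The shares of complex III, complex I assembly factors and complex V fell to 75%, 87.5% and 82.4%, inside the wide intervals of these small groups. At the end in place of the start the share was 9.33%, 3.06 points over all genes. For the 10 kb share, a distance of 50 kb gave 98.9%, and summits over 1 kb from every boundary gave 44.6%, 8.56 points over all genes, and those also over 1 kb from every listed start 38.0%, 6.39 points over all genes, while 5 kb left the share and raised the difference to 30.4 points. Complex V reached 100.0% at 5 kb and with listed starts, and the widely expressed isoforms 100.0% at 5 kb. Windows that are wider can only add genes, and the nearest-gene setting leaves out summits closer to a neighbour. Autosomes alone, structural subunits alone, genes over 2 kb, merging summits within 1 kb and a background without members were within the interval. Motifs within 100 bases of a summit were not run, since they need a genome sequence. No paired analysis was possible because the summits come as a single list without library names. With depth unknown, a missing summit cannot be read as missing binding.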

Other observations

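Members of the list stood near each other in a few places without sharing summits. On chromosome 10, Atp5d, Ndufs7 and Uqcr11 of complexes V, I and III followed each other at 103.3 and 146.2 kb, and on chromosome 19 the complex I core genes Ndufs8 and Ndufv1 were 94.7 kb apart. Ndufaf3 and Uqcrc1 on chromosome 9 were 369.2 kb apart, and Cox7a1 and Cox6b1 on chromosome 7 were 430.9 kb apart. Each of these 9 genes had a summit of its own within 1 kb, and in none of the 5 pairs was a summit within 10 kb of both genes.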
